A study of Homo sapiens with 4 samples.

Results

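The genes described here control how RNA polymerase II leaves its paused state and elongates, and their transcripts were measured in AMO1, an established human cell line from a plasmacytoma that serves as a multiple myeloma model. The set holds 9 genes taken by symbol from the 37247 rows of the deposited table: the bromodomain genes BRD2 and BRD3, the kinase gene CDK9 with its cyclin partners CCNT1 and CCNT2, the inhibitor genes HEXIM1 and HEXIM2, and the elongation complex genes ELL and AFF4. The genes were taken by name, in a list drawn up with earlier results of these data known. Wild-type AMO1 cells received vehicle, DMSO at 0.10%, or the cardiac glycoside periplocin, a steroid from plants that inhibits the sodium and potassium pump, at 0.2 mM as the labels give it, both for 6 h. Each group had 2 libraries, all from that line. Separate cultures are not mentioned in the labels, and p-values therefore cover only the spread among these 4 samples, and that spread may be technical.

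BET proteins such as BRD2 and BRD3 carry paired bromodomains that bind acetylated histones, and they help bring the transcription machinery to active genes. P-TEFb, the kinase CDK9 with cyclin T1 or T2, phosphorylates RNA polymerase II and the factors that hold it paused. Much of the cell's P-TEFb is kept inactive in a ribonucleoprotein with the 7SK RNA and a HEXIM protein, while the super elongation complex, built on an AFF scaffold with an ELL factor, carries active P-TEFb to genes. In myeloma cells transcription of MYC is known to depend on BET proteins, and the title of the series concerns how drugs against the pump lower c-Myc.

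Values were TPM, an abundance corrected for transcript length and scaled to a common total, so levels of different genes can be compared but the depth behind them is unknown. Between 12357 and 12915 genes per library had 1 TPM or more, fewer in both periplocin libraries than in both DMSO libraries. All 9 listed plasma cell markers were present, with a summed level of 9863 to 10562 TPM over the 4 libraries. JCHAIN and SDC1 carried most of that sum, and single markers differed between groups. PRDM1 stood at 55.3 and 59.0 TPM with DMSO and at 29.4 and 27.7 TPM with periplocin, with IRF4 and XBP1 also lower in both periplocin libraries. SLAMF7 stood at 47.8 and 49.9 TPM with DMSO and at 160 and 139 TPM with periplocin. Their part in the results below was not tested. Of the 15 listed markers of B cells, T cells, myeloid cells, erythroid cells and fibroblasts, 3 reached a TPM of 1 in at least 2 libraries, CD3D and CD2 were listed at 0 in all 4, and the summed level of any of these cell types stayed between 0.279 and 3.49 TPM. Because these are bulk samples, fewer transcripts per cell and fewer cells with a transcript cannot be told apart.

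BRD2 and ELL were higher with periplocin, HEXIM2 was lower, and the other 6 genes did not pass. All 9 were among the 12947 genes that met the filter on low values, 1 TPM or more in 2 or more libraries. The test was limma's on log2(TPM + 1), with p-values adjusted by Benjamini-Hochberg over all of those genes and called under 0.05. The background was high, with 10.4% of all tested genes called higher and 18.9% called lower, 29.3% in all, so 3 of 9 is a share near that of all genes. In 6 genes both periplocin libraries lay above both DMSO libraries, as they did in 25.4% of all tested genes, and in both HEXIM genes they lay below, as in 43.4% of all genes, so 8 of 9 genes did not overlap between groups against 68.8% of all genes. The median log2 fold change was 0.38 over the 9 genes and -0.14 over all tested genes. Every one of the 9 fold changes kept its sign under each of 13 alternative settings. The filter, the variance trend and the replicate block leave a fold change as it is. For the 8 genes without overlap only a change of scaling could have reversed the sign. None of the 9 passed when no filter was applied and 37247 genes were tested (limma adjusted p = 0.306 for BRD2, 0.0792 for ELL and 0.146 for HEXIM2).

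**Figure D1:**
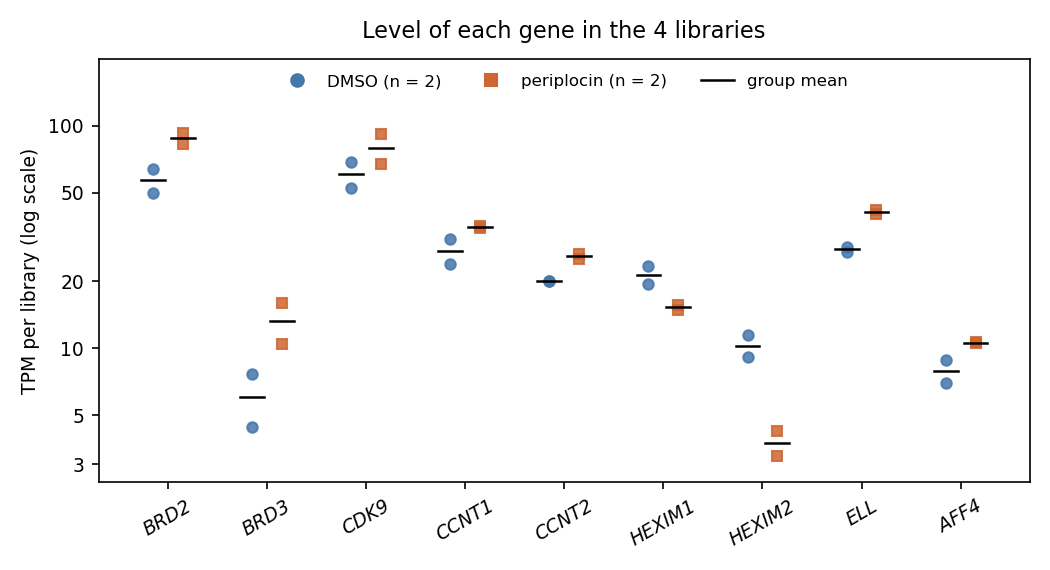
Level of each of the 9 genes in TPM on a log axis, with blue circles for the 2 DMSO libraries, orange squares for the 2 periplocin libraries and a black line at each group mean. Only CDK9 has libraries of the 2 groups that overlap, and both HEXIM genes lie lower with periplocin.

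BRD2, the more abundant of the BET genes chosen here (ENSG00000204256.12, GRCh38 chromosome 6, 32968660 to 32981505, plus strand), stood at 49.8 and 64.3 TPM with DMSO and at 82.6 and 93.3 TPM with periplocin. Both periplocin libraries were above both DMSO libraries. The mean level rose 1.54-fold, from 57.1 ± 10.3 to 87.9 ± 7.54 TPM (SD, n = 2). The log2 fold change on log2(TPM + 1) was 0.62 ± 0.15 (SE, limma adjusted p = 0.0258). The call was lost when any library was left out, with a fold change between 0.44 without DMSO replicate 1 and 0.80 without DMSO replicate 2, and also with no trend in the variance (limma adjusted p = 0.0754). BRD2 overlaps the opposite-strand gene HLA-DMA by 435 bases, and HLA-DMA was listed at 0 in all 4 libraries.

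BRD3, the less abundant of the BET genes chosen here (ENSG00000169925.16, chromosome 9, 134030305 to 134068535, minus strand), stood at 7.63 and 4.42 TPM with DMSO and at 10.5 and 16.0 TPM with periplocin. The groups did not overlap, but the higher library was 1.73-fold above the lower within DMSO and 1.52-fold within periplocin. Its log2 fold change, 1.03 ± 0.31 (SE), was the largest positive one of the 9 and fell just short of the threshold (limma adjusted p = 0.0504). It passed when genes under 5 TPM were left out (limma adjusted p = 0.0316) and under each of the 3 other scalings (limma adjusted p from 0.0323 to 0.0407). BRD3 shares 4362 bases with the opposite-strand gene BRD3OS, which stood at 8.58 and 6.35 TPM with DMSO and at 3.85 and 5.85 TPM with periplocin. Whether strand was used in counting is not stated, so reads from the shared stretch cannot be assigned to either gene.

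BRDT, the BET gene known from testis and named after its values were seen, was listed at 0 in all 4 libraries. The log2 ratio of BRD3 to BRD2, taken on TPM + 1, was -3.07 ± 0.73 with DMSO and -2.67 ± 0.28 with periplocin (SD, n = 2). The difference of 0.41 was within the spread of the libraries (exact two-sided permutation p = 0.667, where 2 against 2 libraries cannot go below 0.33). Without DMSO replicate 2 that difference was -0.11.

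CDK9, the catalytic subunit of P-TEFb (ENSG00000136807.13, chromosome 9, 127785679 to 127790787, plus strand), stood at 52.6 and 68.7 TPM with DMSO and at 67.2 and 92.4 TPM with periplocin. It is the only one of the 9 genes whose groups overlapped, since the lower periplocin library was below the higher DMSO library. The log2 fold change was 0.38 with a 95% confidence interval of -0.09 to 0.85 (limma adjusted p = 0.179). Single libraries moved it to 0.20 (without DMSO replicate 1), 0.61 (without periplocin replicate 1) and 0.16 (without periplocin replicate 2). CDK9 passed with the replicate number as a block (limma adjusted p = 0.0176), although the numbers were not taken to pair the libraries.

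CCNT1, which encodes cyclin T1 (ENSG00000129315.10, chromosome 12, 48688458 to 48716998, minus strand), stood at 23.8 and 30.9 TPM with DMSO and at 34.6 and 35.5 TPM with periplocin. CCNT2, which encodes the alternative partner cyclin T2 (ENSG00000082258.12, chromosome 2, 134918235 to 134959342, plus strand), stood at 20.04 and 20.2 TPM with DMSO and at 25.1 and 26.6 TPM with periplocin. For both cyclins the periplocin libraries were the higher ones without overlap, yet neither gene passed the threshold. The log2 fold changes were 0.36 (95% confidence interval -0.02 to 0.73, limma adjusted p = 0.129) for CCNT1 and 0.35 (0.04 to 0.66, limma adjusted p = 0.0847) for CCNT2. The value of CCNT1 was 0.18 without DMSO replicate 1 and 0.54 without DMSO replicate 2. CCNT2 passed under each of the 3 other scalings (limma adjusted p from 0.0295 to 0.0395). CCNT1 passed with median centring alone (limma adjusted p = 0.0422), which moves the median log2 fold change of all genes from -0.14 to 0.02.

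The shares of the cyclins overlapped between groups. CCNT2 made up 45.7% and 39.5% of the cyclin T transcripts with DMSO and 42.1% and 42.8% with periplocin. The log2 ratio of CCNT2 to CCNT1, taken on TPM + 1, was -0.42 ± 0.25 with DMSO and -0.43 ± 0.03 with periplocin (SD, n = 2), a difference of -0.01 (exact two-sided permutation p = 1). The smallness of this difference is not evidence of equality, since leaving out a library moved it between -0.19 and 0.17. Per CDK9 transcript there were 0.834 and 0.743 cyclin T transcripts with DMSO and 0.889 and 0.672 with periplocin. Transcripts of CDK9 thus outnumbered those of the cyclins in all 4 libraries, and the amounts of the proteins were not measured.

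HEXIM1 encodes the main protein inhibitor of P-TEFb and HEXIM2 a paralogue that acts in the same complex. The genes are neighbours on the plus strand of chromosome 17, with HEXIM1 (ENSG00000186834.3) at 45148502 to 45152101 and HEXIM2 (ENSG00000168517.10) at 45160700 to 45170040. The gap is 8598 bases and holds no other whole gene of GENCODE 29. Sequences before a RefSeq start of each are shown because the neighbours were the only listed genes with lower values under periplocin. They are RefSeq upstream sequence on GRCh38.p14, 5′ to 3′, cut back to bases outside the gene's own GENCODE 29 exons, with capitals marking CCAAT on either strand and TATAAA. Distances are counted from RefSeq starts, which differ from the GENCODE 29 gene starts given above. The HEXIM1 run is chr17:45148225-45148474 and ends at the base before the RefSeq start, which lies upstream of the GENCODE start. The HEXIM2 run is chr17:45161625-45161844, from 250 to 31 bases before the RefSeq start whose window has the more CG pairs of the 2 listed. That start is internal to the GENCODE gene, so the run lies inside HEXIM2 as annotated there and outside its exons. Both runs are on the plus strand.
HEXIM1: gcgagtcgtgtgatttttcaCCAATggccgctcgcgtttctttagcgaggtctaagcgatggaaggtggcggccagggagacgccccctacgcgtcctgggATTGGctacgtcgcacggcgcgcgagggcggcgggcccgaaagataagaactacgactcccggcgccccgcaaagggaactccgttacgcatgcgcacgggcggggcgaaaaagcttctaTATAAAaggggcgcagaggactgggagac
HEXIM2: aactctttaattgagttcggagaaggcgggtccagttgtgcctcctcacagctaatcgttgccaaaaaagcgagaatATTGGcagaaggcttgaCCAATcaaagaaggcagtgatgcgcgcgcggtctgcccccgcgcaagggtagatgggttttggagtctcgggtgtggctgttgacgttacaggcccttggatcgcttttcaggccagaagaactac

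Both upstream windows hold CCAAT 2 times, once in each orientation, at 230 and 149 bases before the RefSeq start of HEXIM1 and at 173 and 156 bases before the one used for HEXIM2. CCAAT on either strand was found in 32.0% of the 35116 RefSeq windows of 250 bases. It was also in a window of CCNT1 and in that of CCNT2, whose values were higher with periplocin without passing. The other listed window of HEXIM2 lacks CCAAT. HEXIM1 alone of the 9 genes has TATAAA, 29 bases before its start, against 10.7% of all windows. GGGCGG was found for 8 of the 9 genes, all but HEXIM2, and in 42.6% of all windows. The GC content was 62.4% for HEXIM1 and 55.2% for HEXIM2, with a median of 58% over all windows. A match describes the letters and is not evidence of binding.

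HEXIM2 stood at 9.09 and 11.5 TPM with DMSO and at 4.22 and 3.28 TPM with periplocin. Both periplocin libraries were far below both DMSO libraries. The mean fell from 10.3 ± 1.67 to 3.75 ± 0.664 TPM (SD, n = 2), a level 2.74-fold lower, a log2 fold change of -1.25 ± 0.23 (SE; limma adjusted p = 0.0129), the largest change of the 9 genes in size. The call held with the other scalings and without periplocin replicate 1 (limma adjusted p = 0.0425) but not without periplocin replicate 2 (0.0616), DMSO replicate 1 (0.103) or DMSO replicate 2 (0.112). No gene of the table passed in either fit that left out a DMSO library.

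HEXIM1 stood at 23.5 and 19.4 TPM with DMSO and at 15.6 and 14.9 TPM with periplocin. Its groups did not overlap and its values were lower with periplocin, but it did not pass the threshold. The log2 fold change was -0.46 ± 0.16 (SE; limma adjusted p = 0.0722), and -0.30 both with quantile normalization and with median centring. The antisense gene AC138150.1, not analysed here, overlaps both HEXIM1 and HEXIM2. HEXIM2, BRD2, BRD3, CCNT2, ELL and AFF4 overlap further opposite-strand genes of GENCODE 29 that were not analysed here, so the values of all of these carry that uncertainty. AFF4 also overlaps 2 opposite-strand pseudogenes, both listed at 0 in all 4 libraries.

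HEXIM2 transcripts were 27.9% and 37.2% of all HEXIM transcripts with DMSO and 21.2% and 18.1% with periplocin. The log2 ratio of HEXIM2 to HEXIM1, taken on TPM + 1, went from -0.99 ± 0.40 to -1.78 ± 0.15 (SD, n = 2). The difference was -0.79, and -0.95 with 0.1 added to TPM in place of 1. On TPM + 1 the groups did not overlap (exact two-sided permutation p = 0.33, the smallest that 2 against 2 libraries allow). A difference between the paralogues in their change could therefore not be established by this test. Leaving out a library gave differences from -1.07 to -0.50, all of the same sign.

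Set against their target, the HEXIM transcripts were fewer in both periplocin libraries. HEXIM1 and HEXIM2 summed to 32.6 and 30.8 TPM with DMSO and to 19.9 and 18.1 TPM with periplocin. Per CDK9 transcript this was 0.620 and 0.448 with DMSO and 0.295 and 0.196 with periplocin. Per cyclin T transcript it was 0.744 and 0.603 with DMSO and 0.332 and 0.292 with periplocin. These ratios do not depend on the scaling of a library, were chosen after the values were seen and are given without a test. They count transcripts and not proteins.

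**Figure D2:**
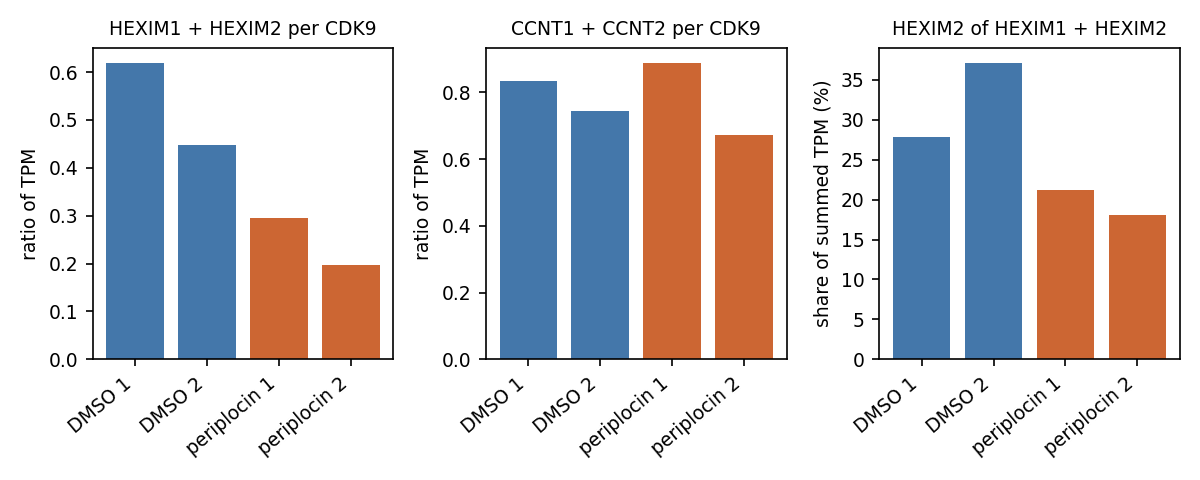
Ratios within each library, with bars from 0 in blue for DMSO and orange for periplocin: summed HEXIM TPM per CDK9 TPM, summed cyclin T TPM per CDK9 TPM, and the share of HEXIM2 in summed HEXIM TPM in percent. HEXIM per CDK9 is 0.448 or more with DMSO and 0.295 or less with periplocin, while cyclin T per CDK9 overlaps between the groups.

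ELL encodes an elongation factor that raises the rate of RNA polymerase II and joins the super elongation complex (ENSG00000105656.12, chromosome 19, 18442663 to 18522127, minus strand). It stood at 28.5 and 27.2 TPM with DMSO and at 41.7 and 40.3 TPM with periplocin. The libraries of a group were within 1.05-fold of each other and the groups were well apart. The mean rose from 27.8 ± 0.903 to 41.0 ± 0.983 TPM (SD, n = 2), 1.47-fold. The log2 fold change on log2(TPM + 1) was 0.54 ± 0.11 (SE, limma adjusted p = 0.0180). The call was kept under every scaling and with no variance trend (limma adjusted p = 0.0436), and was lost when any library was left out (limma adjusted p from 0.0742 to 0.113, fold changes from 0.51 to 0.58).

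AFF4, a scaffold of the super elongation complex (ENSG00000072364.12, chromosome 5, 132875379 to 132963634, minus strand), stood at 6.98 and 8.89 TPM with DMSO and at 10.6 and 10.6 TPM with periplocin. The groups did not overlap. The log2 fold change of 0.39 had a 95% confidence interval of -0.08 to 0.85 and did not pass (limma adjusted p = 0.177). It was 0.23 without DMSO replicate 1 and 0.64 with quantile normalization (limma adjusted p = 0.0504).

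**Figure D3:**
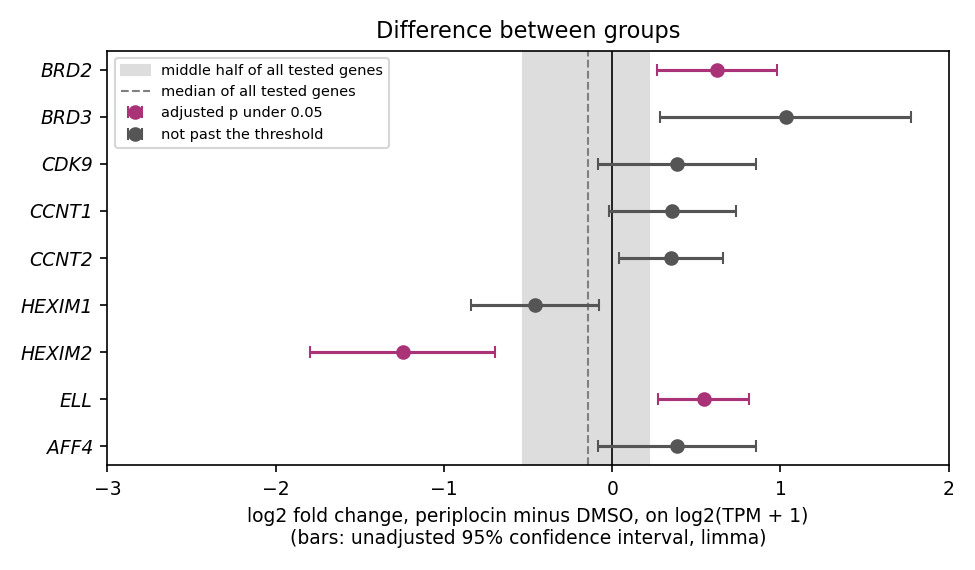
Log2 fold change of each gene, periplocin minus DMSO on log2(TPM + 1), with bars for the unadjusted 95% confidence interval of limma; purple marks the 3 genes past the adjusted threshold, the grey band the range between the quartiles of all tested genes and the dashed line their median of -0.14. The intervals of BRD2, BRD3 and ELL lie wholly right of the band and that of HEXIM2 wholly left of it.

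The letters CACGTG, the E-box that c-Myc and its partner MAX can bind, were searched before the starts of all 9 genes because the series is about c-Myc. They were found in the windows before the RefSeq starts of CCNT1 and AFF4 and in 6.34% of all windows. The CCNT1 window lies inside the gene as GENCODE 29 gives it, since its RefSeq start is internal to that gene, whereas the AFF4 window lies wholly upstream of the gene. The sites are shown as 30 bases on the minus strand of GRCh38.p14 from RefSeq, 5′ to 3′, with CACGTG in capitals, at chr12:48716924-48716953 for CCNT1 and at chr5:132963671-132963700 for AFF4.
CCNT1: ccgcccaacggtCACGTGacgcgcctgcgt
AFF4: gcgcagaggcatCACGTGacgccccgcacc
The sites start 234 and 54 bases before the RefSeq start, and neither gene passed the test between groups, as given above. The windows of BRD2, BRD3, CDK9, CCNT2, HEXIM1, HEXIM2 and ELL lack CACGTG, which says only that these letters are not within 250 bases of the listed starts. The letters TGACGTCA of a cyclic AMP response element, read on both strands, were in no window of the 9 genes and in 1.65% of all windows.

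Within the DMSO group the order of mean levels from highest to lowest was CDK9, BRD2, ELL, CCNT1, HEXIM1, CCNT2, HEXIM2, AFF4 and BRD3. CDK9 and BRD2 overlapped in their library values, as did ELL with CCNT1, HEXIM1 with CCNT2 and AFF4 with BRD3, so these neighbours are not ordered beyond their spread. With periplocin BRD2 (87.9 TPM) and CDK9 (79.8 TPM) still overlapped at the top, ELL (41.0 TPM) was above CCNT1 (35.1 TPM) in every library, and HEXIM2 (3.75 TPM) was the lowest. BRD3, at 13.2 ± 3.89 TPM (SD, n = 2), overlapped both HEXIM1 at 15.3 ± 0.553 TPM and AFF4 at 10.6 ± 0.0375 TPM (SD, n = 2).

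Of the 42 other genes of elongation control 40 were tested, and 3 were higher and 9 lower with periplocin, 7.5% and 22.5% against 10.4% and 18.9% of all tested genes. Their median log2 fold change was -0.07. Most of the lower genes belonged to the super and little elongation complexes, where 5 of 9 tested genes were lower and none higher. That count leaves out ELL and AFF4, described above, of which ELL was called higher and AFF4 was not called. With median-of-ratios size factors 8 of the 40 were higher and 7 lower, so the balance between directions depends on the scaling. That holds for the whole table, where 1352 genes were higher and 2443 lower as deposited, and 2012 and 1745 with size factors. The 2 of the 42 genes left untested were below the filter, AFF3 between 0.0280 and 1.01 TPM and ELL3 between 0 and 0.977 TPM.

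Among partners of ELL and AFF4, ICE2, a subunit of the little elongation complex that serves small nuclear RNA genes, fell from a mean of 25.3 ± 1.56 to 9.12 ± 2.25 TPM (SD, n = 2; -1.39 on the log2 scale, limma adjusted p = 0.00693). ZC3H8 of the same complex fell by 0.84, and EAF2, which binds ELL proteins, fell by 0.76. MLLT3, a reader of acylated histones in the super elongation complex, fell by 0.96. EAF1 and MLLT1 of the same list, named after their values were seen, went the other way without passing. Their log2 fold changes were 0.44 (limma adjusted p = 0.0713) and 0.34 (limma adjusted p = 0.0653). ELL2, the ELL paralogue by far the most abundant in these plasma cells and known for its part in immunoglobulin secretion, stood at 156 and 158 TPM with DMSO and at 152 and 155 TPM with periplocin (log2 fold change -0.03, limma adjusted p = 0.771). ELL2 was named after its values were seen. ELL was below ELL2 and above ELL3 in every library. AFF1, also named after its values were seen, stood at 43.5 and 55.1 TPM with DMSO and 54.5 and 42.2 TPM with periplocin. Its log2 fold change was -0.03 (limma adjusted p = 0.911), and AFF4 was below AFF1 in every library.

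Of the other 7SK proteins, LARP7, which binds the RNA, had a log2 fold change of 0.33 (limma adjusted p = 0.0572) and MEPCE, which caps it, of -0.25 (limma adjusted p = 0.136). Both were named after their values were seen, and neither passed. Among regulators of P-TEFb release, JMJD6, an oxygenase, rose from a mean of 37.2 ± 0.951 to 74.7 ± 3.87 TPM (SD, n = 2; 0.99 on the log2 scale, limma adjusted p = 0.00408), and the phosphatase PPM1A rose by 0.55. SRSF2, a splicing factor known to bind 7SK, fell from 649 ± 20.9 to 326 ± 11.9 TPM (SD, n = 2; -0.99, limma adjusted p = 0.00244). Of the elongation factors TCEA2, a tissue-restricted form of TFIIS, fell by 1.27, and of the other transcription kinases CDK13 rose by 0.56 (limma adjusted p = 0.0358). With no trend in the variance CDK13 and PPM1A did not pass (limma adjusted p = 0.0582 and 0.0562).

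Of the 39 other bromodomain genes 37 were tested, and 10 were higher and 4 lower, 27.0% and 10.8% against 10.4% and 18.9% of all tested genes. Their median log2 fold change was 0.18, against -0.14 over all tested genes. With size factors, and again with median centring, 15 of them were higher and 4 lower. The counts over all 12947 tested genes moved as well, from 1352 higher and 2443 lower. They were 2012 and 1745 with size factors, and 2117 and 1553 with median centring. The called genes of histone acetyltransferases differed in direction. EP300, an acetyltransferase gene named after its values were seen, was higher without passing (log2 fold change 0.64, limma adjusted p = 0.0692). CREBBP rose from a mean of 20.4 ± 0.369 to 43.6 ± 3.27 TPM (SD, n = 2; 1.06 on the log2 scale, limma adjusted p = 0.00458) and KAT2B rose by 0.83, whereas KAT2A fell from 40.7 ± 2.41 to 20.4 ± 1.76 TPM (SD, n = 2; -0.96, limma adjusted p = 0.00616). The histone methyltransferase gene ASH1L rose by 1.12, the ATPase gene ATAD2 by 1.02, and BRWD1 and PHIP, of 1 WD-repeat family, by 0.89 and 0.72. BRWD1 and PHIP did not pass with no trend in the variance (limma adjusted p = 0.0576 and 0.0533). The nuclear body genes SP140 and SP110 fell by 1.41 and 1.40, and ZMYND8, a chromatin reader, fell by 0.73.

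**Figure D4:**
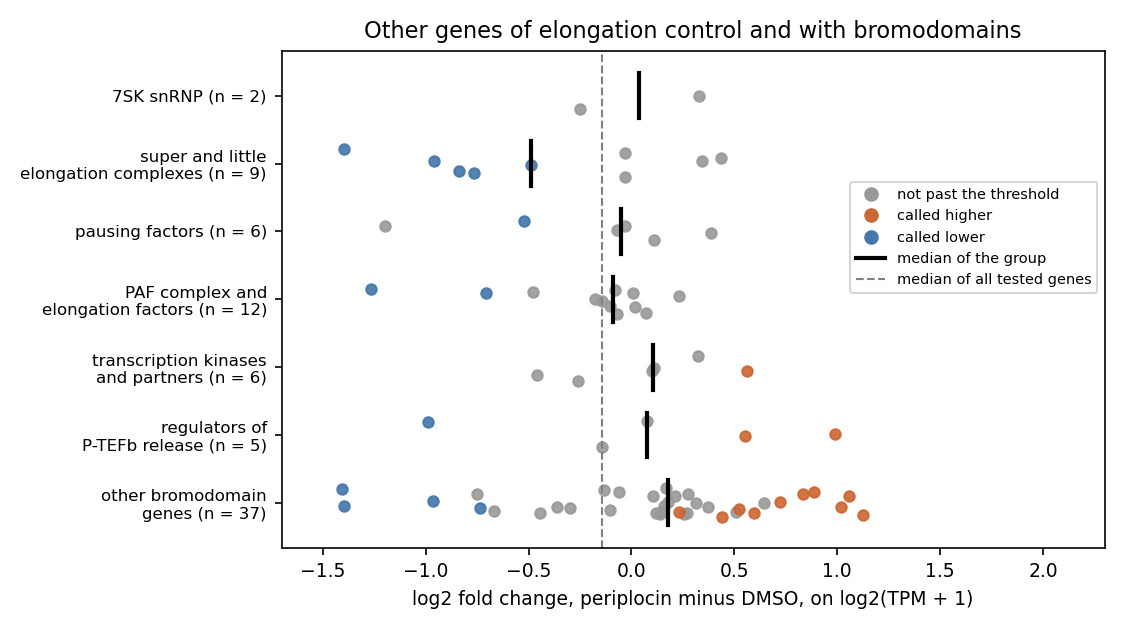
Log2 fold change of the tested genes of the wider lists, by group, with orange for genes called higher, blue for genes called lower, grey for the rest, black lines at group medians and a dashed line at the median of all tested genes. In the super and little elongation complexes, drawn without ELL and AFF4, 5 of 9 points are blue and none is orange, and in the bromodomain list 10 of 37 are orange.

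Likeness of pattern was measured as the Euclidean distance between log2(TPM + 1) profiles centred over the 4 libraries, for each called gene against the 85 other tested genes of these lists. The nearest gene reported for BRD2 was PHIP, at a distance of 0.17. Those nearest to ELL were the bromodomain gene BRD1, at 0.07, and PPM1A, at 0.16. HEXIM2 was nearest to SP140, at 0.31, and MLLT3, at 0.37. With 4 libraries in 2 groups such distances mostly rank genes by the size of their difference between groups.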

How the data were processed

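Total RNA of 4 AMO1 libraries was sequenced with paired reads (Illumina), per the labels' protocols. The authors deposited TPM values per gene. The submitters' processing notes name GRCh38 and DESeq2 without a role, while aligner, quantifier, annotation and strand use were not given in the sources used here. Columns headed PP were taken as periplocin. Symbols came from a table of current gene names, which held 34436 of the 37247 identifiers, and positions from GENCODE 29, whose identifier versions matched for all 9 genes.

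Genes with 1 TPM or more in 2 or more libraries were transformed to log2(TPM + 1) and tested by limma-trend (limma 3.58.1, R 4.3.3; two-sided), with Benjamini-Hochberg values over 12947 genes. The fit was tested on simulated data. This scale understates the change of low genes. TPM keeps no depth, so no counting interval is given. Tables were made in Python 3.11.15 (numpy 2.4.6, pandas 2.3.3), exact permutation tests by enumerating every split of the libraries, and plots with matplotlib 3.10.9.

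The genes named were all 9 members, up to 6 called genes in each direction with the largest change from each wider list, and the 2 nearest profiles to each called member; others are marked as named after their values were seen. A result that the rule selects is not reported here. The members and lists were chosen with earlier results of these data known. Alternatives covered the pseudocount, the filter, the scaling, the variance trend, a replicate block and each library left out.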

Additional observations from a re-analysis of the deposited data

How the results depend on the processing

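The direction of all 9 genes held under the 13 alternatives, but the calls depended on the settings. For genes whose groups did not overlap, only the scalings could have reversed the direction. With no filter on low values 97 genes of the table were higher and 148 lower (1352 and 2443 as reported), and the counts were 0 and 0 of the 9 genes, 0 and 0 of the other elongation control genes, and 0 and 1 of the other bromodomain genes. With median centring 2117 genes were higher and 1553 lower, and 5 of the 9 genes and 8 other elongation control genes were higher. With size factors 4 of the 9 genes and 8 other elongation control genes were higher, with quantile normalization 4 and 7, and with a minimum of 5 TPM 5 other elongation control genes were. Of all tested genes 2012 were higher and 1745 lower with size factors, and 1757 and 1758 with quantile normalization. The minimum of 5 TPM left 10001 genes, of which 1446 were higher and 2445 lower. Without the variance trend 876 genes were higher, among them 1 of the 9, 1 other elongation control gene and 6 other bromodomain genes. The median log2 fold change of all genes was -0.14 as deposited and -0.01 with size factors.

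Leaving out each library in turn gave 0 to 522 genes higher and 0 to 1142 lower. Under limma no gene passed without DMSO replicate 1, where 3925 had an unadjusted p under 0.05, or without DMSO replicate 2, where 4156 had. The ranges were 0 to 0 higher and 0 to 1 lower for the 9 genes, 0 to 1 higher and 0 to 6 lower for the other elongation control genes, and 0 to 4 higher and 0 to 3 lower for the other bromodomain genes. The log2 ratio difference ranged from -0.19 to 0.17 for CCNT2 and CCNT1, turning positive without DMSO replicate 1 (0.17) and without periplocin replicate 1 (0.01), and from -0.11 to 0.92 for BRD3 and BRD2, turning negative without DMSO replicate 2 (-0.11). The cause of these shifts was not tested.

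The labels number the libraries of both groups, but deviations of same-numbered libraries hardly correlated across genes (r = 0.03), so the numbers were not taken to pair them. With the replicate number as a block 1685 genes were higher and 2876 lower, and 3 of the 9 genes were higher and 1 lower, CDK9 being added (limma adjusted p = 0.0176). TPM keeps no record of depth, so what depth limits cannot be stated.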

Other observations

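The genes given here were chosen after their values were seen. NELFE and TAF1 differed widely between the periplocin libraries. NELFE, a subunit of the pausing factor NELF, stood at 22.8 and 33.9 TPM with DMSO and at 19.0 and 6.91 TPM with periplocin (log2 fold change -1.20, limma adjusted p = 0.0894). TAF1, a bromodomain subunit of TFIID, stood at 14.9 and 13.4 TPM with DMSO and at 7.501 and 16.8 TPM with periplocin. SUPT4H1, a subunit of the pausing and elongation factor DSIF, was lower with periplocin (log2 fold change -0.52, limma adjusted p = 0.0216), while its partner SUPT5H had a log2 fold change of -0.07 (limma adjusted p = 0.584).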
